A study of Mus musculus with 28 samples.

Results

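The comparison described here is that of BMP2-treated with untreated mouse small-intestinal organoids. Its groups were defined by the sample labels and hold 8 of the 28 samples of the series. The comparison and the gene lists were chosen with earlier results of these data known. Organoids are epithelial cultures grown in a gel matrix from intestinal crypts, here from wild-type C57BL/6 mice. All were first kept in ENR medium without added BMP or Tgfb. By convention ENR stands for EGF, Noggin and R-spondin, of which Noggin is a secreted BMP antagonist, and the labels do not say which medium was used together with the ligand. The 4 BMP2 samples then received recombinant Bmp2 at 500 ng/ml for 24 h, and the 4 untreated samples received no ligand. No vehicle is named. Both groups carry the replicate numerals II, III, IV and VI, and 4 values given in a row below are always in that order, the untreated group first where both follow each other. The labels do not say whether the numerals stand for separate mice, organoid lines or wells, so the p-values measure the spread between these samples, which may be technical. The samples share a table with organoids given BMP3, BMP4, BMP5 or BMP7, and all 20 samples of that table entered the fit.

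The values are normalized counts: the authors scaled the counts of each sample by its own size factor. They are on 1 scale for all samples, but they cannot be compared between genes because gene length is not taken out. Depth was between 21357138 and 24785676 recovered reads in these 8 samples. After the authors' scaling the normalized counts summed to between 26268636 and 29004576 in BMP2 samples and between 19250832 and 20518942 in untreated samples. Giving all samples 1 common total instead shifted the median log2 change of all genes by -0.46, and changes are reported on the authors' scale with the rescaled value where it matters. BMP2 replicate VI stood apart from the other BMP2 samples for many absorptive and cell cycle genes, and its values are named there. Without it, counts of members that rose or fell by at least 2-fold moved by more than 2 for 4 of the 82 lists, which are named with their results. Mitochondrial transcripts made up 2.81% to 4.59% of the counts with BMP2 and 5.19% to 7.61% without. In bulk RNA, fewer cells of a type and less RNA per cell cannot be told apart.

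Bone morphogenetic proteins are secreted ligands of the Tgfb superfamily. They bind pairs of type I and type II serine/threonine kinase receptors, which phosphorylate Smad1, Smad5 and Smad9. These enter the nucleus with Smad4 and induce, among others, the Id genes and the inhibitory Smads. In the intestine BMP signalling is low in the crypt, where stem cells divide under Wnt signalling, and higher along the villus, where enterocytes mature, absorb nutrients and are shed at the tip.

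Several of the gene groups that moved together are also known for short promoter motifs, and 1 example of each is printed to show where such letters lie. The sequences are RefSeq promoters of the build GRCm38.p6, each from 250 bases before to 50 bases after the annotated start, read 5′ to 3′ on the gene's strand. Capitals mark matches on either strand to GTCTAGAC, a palindromic Smad box, in Smad6, to GGCGCC, a GC-rich Smad site, in Id2, to TTTGAA, the core of the cell cycle homology region, in Mki67, to TTTCCCGC or TTTGGCGC, E2F sites, in Mcm5, and to an interferon-stimulated response element, GAAA repeated after any 2 bases, in Ifit3.
Smad6: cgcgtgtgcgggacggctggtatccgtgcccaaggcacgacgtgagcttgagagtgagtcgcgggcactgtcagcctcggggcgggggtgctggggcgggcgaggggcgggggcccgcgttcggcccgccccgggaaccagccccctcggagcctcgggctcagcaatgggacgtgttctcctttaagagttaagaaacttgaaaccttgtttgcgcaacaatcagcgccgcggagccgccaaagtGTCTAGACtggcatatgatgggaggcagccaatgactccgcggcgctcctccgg
Id2: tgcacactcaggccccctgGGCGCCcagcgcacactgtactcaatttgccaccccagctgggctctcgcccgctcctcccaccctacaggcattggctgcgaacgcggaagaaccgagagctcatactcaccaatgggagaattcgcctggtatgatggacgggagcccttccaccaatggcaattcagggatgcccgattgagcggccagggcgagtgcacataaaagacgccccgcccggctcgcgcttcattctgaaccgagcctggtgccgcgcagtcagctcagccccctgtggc
Mki67: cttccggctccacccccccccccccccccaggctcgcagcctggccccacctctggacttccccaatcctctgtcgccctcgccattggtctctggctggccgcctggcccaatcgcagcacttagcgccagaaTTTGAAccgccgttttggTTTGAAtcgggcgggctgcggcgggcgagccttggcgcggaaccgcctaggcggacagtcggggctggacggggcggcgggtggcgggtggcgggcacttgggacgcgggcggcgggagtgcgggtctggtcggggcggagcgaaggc
Mcm5: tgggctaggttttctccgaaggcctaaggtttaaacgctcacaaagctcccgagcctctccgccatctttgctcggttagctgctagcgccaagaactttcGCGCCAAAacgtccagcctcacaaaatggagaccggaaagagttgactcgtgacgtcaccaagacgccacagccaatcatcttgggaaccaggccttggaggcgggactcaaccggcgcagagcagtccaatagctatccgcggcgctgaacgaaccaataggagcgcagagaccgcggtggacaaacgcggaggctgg
Ifit3: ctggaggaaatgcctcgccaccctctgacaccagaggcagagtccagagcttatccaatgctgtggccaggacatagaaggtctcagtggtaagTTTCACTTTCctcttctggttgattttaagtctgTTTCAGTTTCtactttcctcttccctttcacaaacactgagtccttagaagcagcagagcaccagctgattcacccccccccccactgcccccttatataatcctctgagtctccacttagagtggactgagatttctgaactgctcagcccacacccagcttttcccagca
The Smad6 promoter lies at chr9:64022010-64022309, Id2 at chr12:25096043-25096342, Mki67 at chr7:135716330-135716629, Mcm5 at chr8:75109259-75109558 and Ifit3 at chr19:34583279-34583578, with the Smad6, Id2 and Mki67 promoters on the minus strand and the Mcm5 and Ifit3 promoters on the plus strand. The letters of the interferon element were found in 18 of the 30 interferon response genes with a promoter in the table, and in 3.44% of all 32851 promoters. Those of the E2F sites were found in 13 of 41 DNA replication genes against 1.56% of all promoters. TTTGAA was present in 25 of 33 mitotic genes against 17.9%, and CCAAT in 25 of 33 against 37.4%. GGCGCC was present in 7 of 17 Smad and BMP target genes against 11.9%, and GTCTAGAC in Smad6 alone against 0.213%. GGAATG, a Tead site, was found in 8 of 16 YAP target genes against 14.7%, and CAAAGTCCA, an Hnf4 site, in 3 of 53 genes of drug metabolism against 0.475%. TGANTCA, an AP-1 site, and the core of the serum response element were searched in the AP-1 and immediate early genes and the sterol regulatory element in the cholesterol synthesis genes, with 0 matches. In the same order they occur in 7.81%, 0.0639% and 0.0913% of all promoters, so 0 matches say little for the latter 2. A list gene was counted once if any of its promoters matched, whereas the shares of all are of single promoters. Genes with several promoters had more chances to match, so the units differ. These 11 searches describe letters in a window and do not show that a factor binds there.

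BMP2 changed a large share of the transcriptome. Of 14746 genes tested with limma on log2(normalized count + 1), 36.8% were higher and 38.4% lower with BMP2 at a Benjamini-Hochberg adjusted p under 0.05. At least 2-fold changes among these, called "rose" and "fell" from here on, were found for 20.8% and 23.1% of genes, and these are the shares against which each list is read. After scaling all samples to an equal sum, hereafter the same total, 13.3% rose and 33.9% fell. More members rose than fell in 41 of the 82 lists on the authors' scale and in 30 with the same total. Higher genes made up 48.9% of those called on the authors' scale, 31.5% with the same total and 49.3% once values were quantile-normalized. The groups did not overlap for 67.6% of the genes tested, and most genes named below were chosen among these, so overlap is mentioned only where it occurred.

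**Figure D1:**
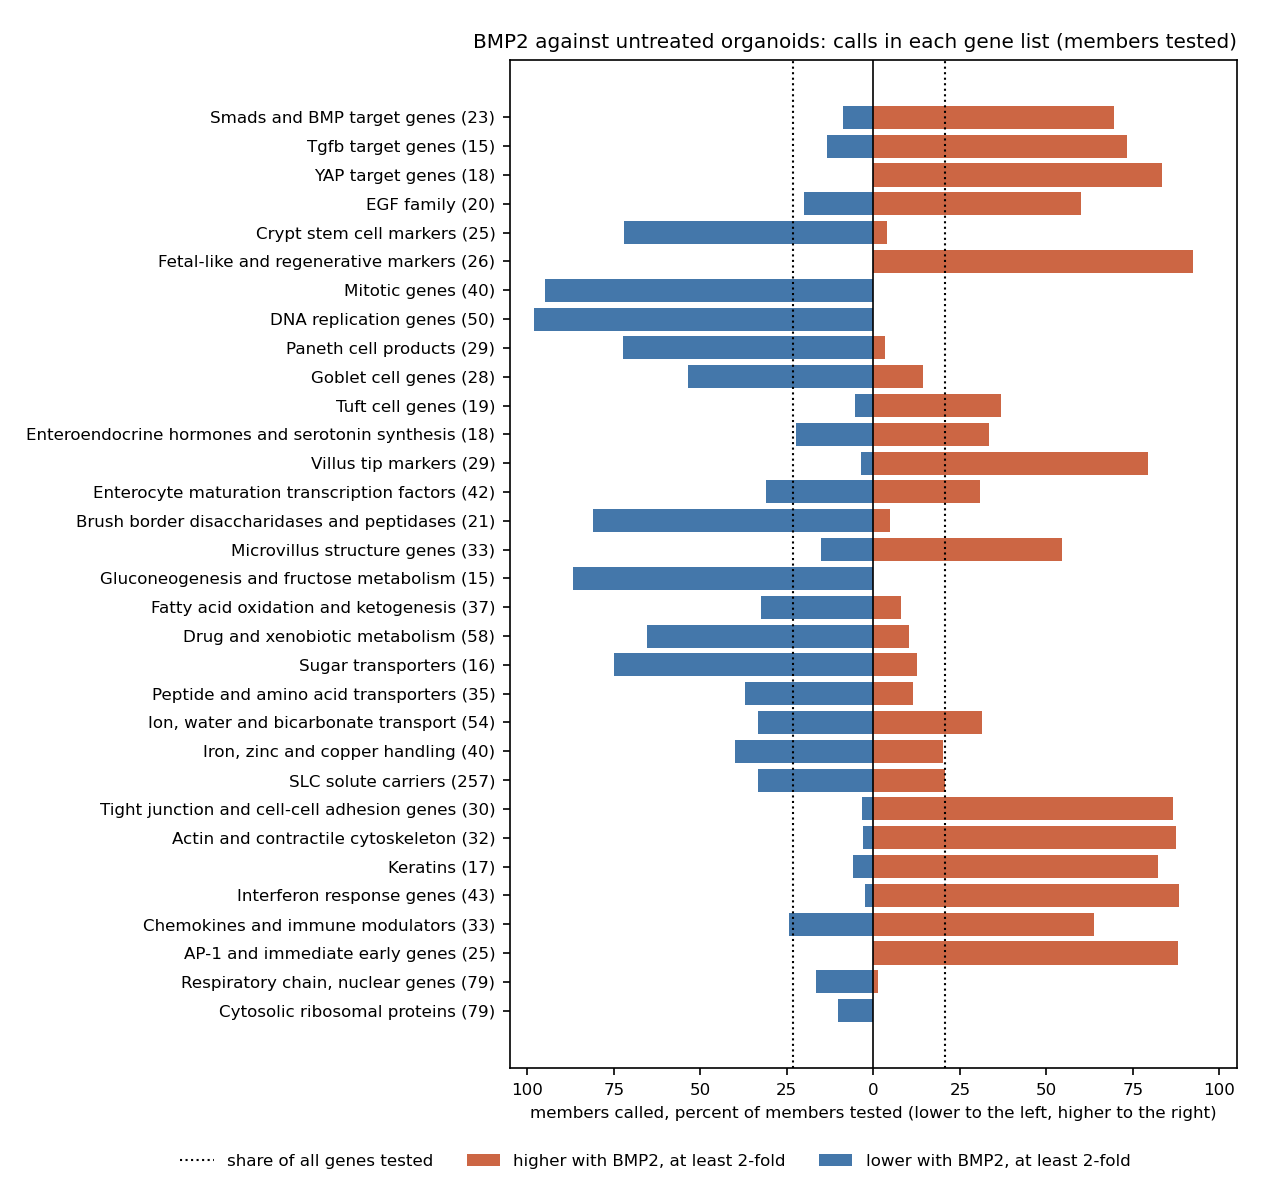
Share of the tested members of each gene list that were called at least 2-fold higher (right) or lower (left) with BMP2 in percent, with the number of members tested in parentheses and dotted lines at the shares of all genes (20.8% and 23.1%). Mitotic, replication, sugar transport and brush border enzyme lists lie mainly to the left, and fetal-like, adhesion, keratin and interferon lists mainly to the right.

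Known target genes of BMP receptor signalling rose. Of 26 Smad and BMP target genes, 23 were tested, 16 rose and 2 fell, with a median log2 change of 2.09. Id3, an inhibitor of basic helix-loop-helix factors, stood at 33.7, 29.9, 20.4 and 32.2 normalized counts in untreated samples and at 2050, 2070, 1680 and 1770 with BMP2. All treated samples lay far above all untreated ones, with a log2 change of 6.00 ± 0.39 SE, adjusted p = 8.88e-11. Id1, its paralogue, stood at 114, 112, 134 and 171 and 2800, 2770, 2700 and 2970 (log2 change 4.41 ± 0.18 SE, adjusted p = 4.16e-13). Id2 behaved less uniformly, at 413, 421, 241 and 310 without and 1640, 1840, 820 and 715 with BMP2, where replicates IV and VI were the lowest of the treated samples (log2 change 1.77 ± 0.31 SE, adjusted p = 4.55e-05). Smad6, an inhibitory Smad that limits BMP signalling, went from 12.4, 32.4, 8.87 and 36.3 to 245, 358, 292 and 295 (log2 change 3.88 ± 0.39 SE, adjusted p = 4.41e-08). Hey1, a Notch and BMP target, and Gata3, a zinc finger factor, were at 2 reads or fewer in each untreated sample and at 85.1, 93.3, 118 and 78.5 and 85.1, 92.1, 64.7 and 96.2 with BMP2. Smad1, the signal carrier itself, stood at 908 to 1020 and 880 to 1010 with overlapping groups (adjusted p = 0.704), though it was called lower with the same total (log2 change -0.49). Zfp503, a zinc finger repressor, fell (log2 change -1.82 ± 0.21 SE, adjusted p = 3.13e-07).

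Receptors and ligands of the superfamily changed in both directions. Acvr1, a BMP type I receptor, went from 376, 411, 372 and 388 to 2730, 2630, 2610 and 2760 (log2 change 2.79 ± 0.11 SE, adjusted p = 2.81e-13), and the type II receptor Bmpr2 from 1800, 1840, 2070 and 1440 to 6350, 6700, 8400 and 5890 (log2 change 1.93 ± 0.14 SE, adjusted p = 5.52e-10). Tgfbr2, the type II receptor for Tgfb, rose as well (log2 change 1.23 ± 0.17 SE, adjusted p = 2.63e-06). Bmpr1a, the type I receptor for BMP2 and BMP4, stood at 4000 to 4940 without and 4120 to 4980 with BMP2, with overlapping groups. Its log2 change was 0.05 on the authors' scale (adjusted p = 0.606). It was called lower with the same total (log2 change -0.41, adjusted p = 0.000746) and after quantile normalization (log2 change -0.47, adjusted p = 7.37e-05). Acvr1c, a receptor for Nodal and activins, and Rgmb, a BMP co-receptor, fell (log2 changes -3.85 and -2.81). In all, 3 of 11 tested receptors rose and 2 fell, 27.3% and 18.2% and so near the shares of all genes. The list's median changed sign with the same total (0.42 and -0.04).

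Of 19 superfamily ligands in the table, 12 were tested, 7 rose and 3 fell. The falls of Bmp7 and Bmp3 were large. Bmp7 stood at 591, 592, 422 and 487 without and 1.14, 15.3, 2.35 and 7.59 with BMP2 (log2 change -6.53 ± 0.43 SE, adjusted p = 9.38e-11). Bmp3 stood at 1330, 1000, 1290 and 1020 and 14.8, 20.5, 25.9 and 24 (log2 change -5.72 ± 0.38 SE, adjusted p = 1.04e-10). Bmp4 was at 0 reads in 3 untreated samples and 1 read in the other, and at 51.1, 72.9, 52.9 and 31.6 with BMP2 (adjusted p = 2.46e-08). Bmp2 itself went from 178, 153, 86 and 130 to 309, 399, 578 and 447 (log2 change 1.67 ± 0.26 SE, adjusted p = 1.1e-05), and Tgfb1 from 64.8, 91.3, 50.6 and 56.2 to 645, 986, 920 and 1100 (log2 change 3.78 ± 0.25 SE, adjusted p = 1.26e-10). Bmp1, a protease that matures procollagens and ligands, rose by 3.37 on the log2 scale. Of the 14 secreted antagonists in the table, 7 were tested, 3 rose and 1 fell. Fst, which binds activins, rose from 12.4, 9.96, 9.76 and 10.7 to 204, 193, 225 and 254, and Fstl1 fell (log2 changes 4.23 and -1.34).

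Genes known as Tgfb targets, matrix and integrin genes among them, rose in 11 of 15 cases and fell in 2, with a median log2 change of 3.47, or 2.02 over all members without the filter on low values. Fn1, fibronectin, stood at 20.4, 17.4, 40.8 and 20.6 without and 2870, 2710, 5710 and 1280 with BMP2 (log2 change 6.81 ± 0.40 SE, adjusted p = 2.57e-11). Thbs1, thrombospondin, stood at 1620, 390, 742 and 294 and 14400, 14400, 17900 and 14000 (log2 change 4.63 ± 0.45 SE, adjusted p = 2.76e-08). Not every classic target rose: Tgfbi, a secreted matrix protein, was at 82.6, 46.5, 52.3 and 80.9 without and 9.08, 5.11, 8.23 and 8.86 with BMP2 (log2 change -2.90 ± 0.25 SE, adjusted p = 5.48e-09), and Tgm2, transglutaminase, fell by 1.12 on the log2 scale. YAP target genes, which respond to cell spreading and tension, rose in 15 of 18 tested cases (22 in the table) and fell in 0. F3, tissue factor, stood at 1180, 1260, 758 and 1140 and 30000, 35700, 27700 and 39100 (log2 change 4.94 ± 0.29 SE, adjusted p = 2.76e-11).

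Wnt pathway genes moved in both directions. Of 22 Wnt targets tested, 6 rose and 8 fell, shares of 27.3% and 36.4%. Of these, Lgr5, the R-spondin receptor, stood at 5210, 5050, 3150 and 3950 without and 9.08, 7.67, 3.53 and 17.7 with BMP2 (log2 change -8.84 ± 0.37 SE, adjusted p = 5.89e-13), and Ascl2, a stem cell factor, at 290, 298, 295 and 363 and 42, 33.2, 21.2 and 40.5 (log2 change -3.19 ± 0.25 SE, adjusted p = 1.13e-09). Axin2, a feedback inhibitor, fell less, from 5250, 4080, 4480 and 4250 to 1390, 1030, 1090 and 1370 (log2 change -1.89 ± 0.21 SE, adjusted p = 1.15e-07). Cd44, a hyaluronan receptor, went the other way, from 4000, 3350, 3590 and 3460 to 31500, 33100, 28400 and 28500 (log2 change 3.08 ± 0.12 SE, adjusted p = 2.3e-13), as did Ephb3, a guidance receptor (log2 change 1.80 ± 0.10 SE, adjusted p = 9.7e-12). Of 22 Wnt ligands and receptors, 5 rose and 4 fell, 22.7% and 18.2% and so near the shares of all genes. Their median changed sign with the same total (0.12 to -0.34). Wnt3, the crypt ligand made by Paneth cells, fell (log2 change -2.26 ± 0.14 SE, adjusted p = 5.4e-11), and Wnt7a rose from 13.3, 9.96, 9.76 and 7.43 to 242, 303, 204 and 152 (log2 change 4.33 ± 0.28 SE, adjusted p = 6.71e-11).

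Notch pathway genes rose in 6 and fell in 7 of 20 cases, whereas with the same total 2 rose and 9 fell. The ligand Dll1 and the secretory factor Atoh1 fell by 2.57 and 1.71 on the log2 scale, whereas Hes1, the classic Notch target, stood at 1830, 1080, 1500 and 1510 and 1280, 1000, 1260 and 1250 with overlapping groups and was not called (adjusted p = 0.434). It was called lower with the same total (log2 change -0.75, adjusted p = 0.0387) and with a replicate block in these 8 samples alone (log2 change -0.29, adjusted p = 0.012). EGF family genes rose in 12 of 20 cases and fell in 4. The ligand Areg went from 1140, 966, 615 and 777 to 11000, 14700, 12300 and 13200 (log2 change 3.90 ± 0.21 SE, adjusted p = 8.1e-12), and the receptor Egfr from 1510, 1370, 1340 and 1170 to 25700, 18100, 26800 and 21000 (log2 change 4.07 ± 0.16 SE, adjusted p = 2.98e-13). Lrig1, a negative regulator of Egfr and a stem cell marker, fell from 5990, 5170, 4400 and 4800 to 577, 578, 518 and 544 (log2 change -3.19 ± 0.14 SE, adjusted p = 5.93e-13). Of 5 Hedgehog genes tested, 1 rose and 2 fell, and their median changed sign with the same total (0.10 to -0.36). The receptor Ptch1 and the signal transducer Smo fell (log2 changes -1.78 and -3.31).

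Stem cell and cell cycle transcripts were depleted. Crypt stem cell markers fell in 18 of 25 cases and rose in 1. Olfm4, an abundant secreted marker of cycling stem cells, stood at 85700, 84000, 110000 and 91100 without and at 88.5, 66.5, 68.2 and 549 with BMP2 (log2 change -9.55 ± 0.50 SE, adjusted p = 5.01e-12). BMP2 replicate VI kept the highest residual level, and no treated sample reached an untreated one. Smoc2, a stem cell matrix protein, went from 7130, 6390, 6570 and 5960 to 21.6, 28.1, 61.2 and 70.9 (log2 change -7.29 ± 0.29 SE, adjusted p = 3.72e-13). The 1 member that rose was Mex3a, an RNA-binding protein of slowly cycling progenitors, at 289, 358, 510 and 425 and 598, 864, 928 and 820 (log2 change 1.03 ± 0.22 SE, adjusted p = 0.000392). The fetal-like and regenerative genes rose in 24 of 26 cases and fell in 0. Clu, a chaperone that marks regenerating crypt cells, stood at 3360, 2390, 4110 and 3900 and 120000, 136000, 115000 and 133000 (log2 change 5.22 ± 0.29 SE, adjusted p = 1.07e-11), and Anxa1, a phospholipid-binding protein, at 930, 509, 698 and 759 and 61100, 61300, 45900 and 53000 (log2 change 6.28 ± 0.27 SE, adjusted p = 6.83e-13). Ly6a, widely used for the fetal-like state, overlapped between groups, at 783, 648, 312 and 541 and 2600, 2410, 623 and 1240 (log2 change 1.45 ± 0.36 SE, adjusted p = 0.00142).

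Of 40 mitotic genes, 38 fell and 0 rose, and of 50 DNA replication genes, 49 fell and 0 rose. Mki67, a nuclear protein of cycling cells, stood at 11200, 10900, 14500 and 7480 and 128, 81.8, 325 and 380 (log2 change -5.81 ± 0.41 SE, adjusted p = 2.7e-10). Ccna2, cyclin A, stood at 5400, 4910, 4170 and 4760 and 32.9, 46, 63.5 and 220 (log2 change -6.12 ± 0.39 SE, adjusted p = 6.01e-11), and the replicative helicase subunit Mcm5 at 3560, 3150, 2940 and 3070 and 110, 132, 168 and 321 (log2 change -4.24 ± 0.28 SE, adjusted p = 1.37e-10). The treated samples lay below every untreated one for each of these 3 genes, and BMP2 replicate VI was the highest treated sample. The median over the mitotic list was -3.53 in replicate VI and between -5.26 and -4.26 in the other treated samples, in log2 units relative to the untreated mean. Cell cycle inhibitors and p53 targets moved in both directions, with 15 of 30 rising and 7 falling. Cdkn1a, p21, went from 1170, 1510, 1200 and 1900 to 11400, 13800, 12100 and 13500 (log2 change 3.16 ± 0.22 SE, adjusted p = 2.12e-10), and Cdkn2b, p15, from 437, 403, 371 and 510 to 1750, 1650, 1310 and 1430 (log2 change 1.83 ± 0.14 SE, adjusted p = 7.8e-10). Cdkn2c, p18, which is also expressed in cycling cells, fell from 366, 319, 295 and 333 to 10.2, 6.39, 12.9 and 19 (log2 change -4.74 ± 0.27 SE, adjusted p = 1.36e-11).

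**Figure D2:**
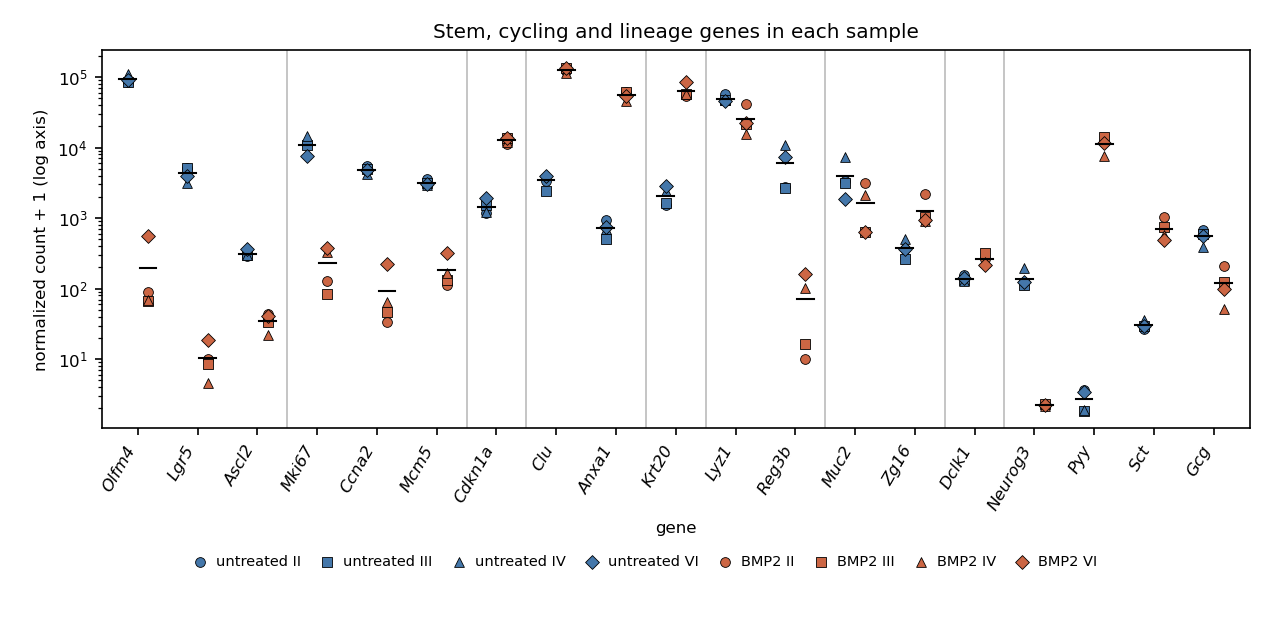
Normalized count plus 1 on a log axis for stem cell, cell cycle, regenerative and lineage genes in each of the 4 untreated (blue) and 4 BMP2 (orange) samples, with the mean as a line and the replicate as marker shape. Olfm4, Lgr5 and Mki67 lie far lower with BMP2 and Clu, Anxa1, Krt20 and Pyy far higher, and BMP2 replicate VI is the highest treated sample for Olfm4, Lgr5 and Ccna2.

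The secretory lineages did not respond alike. Paneth cells, which secrete antimicrobial peptides into the crypt, lost transcripts: 21 of 29 products fell and 1 rose. Lyz1, lysozyme, stood at 57600, 47800, 47000 and 45000 and 42000, 21800, 15400 and 22000, highest among treated samples in replicate II (log2 change -1.06 ± 0.25 SE, adjusted p = 0.000961). The lectin Reg3b fell further, from 2760, 2660, 11000 and 7400 to 9.08, 15.3, 100 and 159, with replicates IV and VI higher than II and III in both groups (log2 change -6.94 ± 0.75 SE, adjusted p = 1e-07). The list also holds alpha-defensins, whose near-identical copies the counting could have split, so single defensins are not described. Goblet cells, which secrete mucus, showed a mixed picture, with 15 of 28 genes falling and 4 rising. Muc2, the gel-forming mucin, ranged from 1860 to 7270 without and 632 to 3120 with BMP2, and the groups overlapped. Its log2 change was -1.44 ± 0.63 SE, adjusted p = 0.048, and the call was lost without BMP2 replicate III (adjusted p = 0.15), without BMP2 replicate VI (adjusted p = 0.147) and without untreated replicates II, III or IV (adjusted p = 0.0731, 0.0668 and 0.154). edgeR and DESeq2 on recovered reads did not call it either (adjusted p = 0.0749 and 0.0946). Creb3l1, a secretory pathway factor, and Guca2a, the hormone guanylin, fell (log2 changes -3.10 and -3.15). Zg16, a lectin of mature goblet cells, rose from 361, 266, 511 and 366 to 2160, 1020, 901 and 950 (log2 change 1.68 ± 0.26 SE, adjusted p = 1.12e-05), as did the secreted Clca1 (log2 change 1.67 ± 0.31 SE, adjusted p = 7.07e-05).

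Tuft cells, chemosensory cells of the epithelium, were represented by 19 tested genes, of which 7 rose and 1 fell. Dclk1, a kinase and the usual tuft marker, was higher without reaching 2-fold, at 154, 132, 126 and 139 and 262, 322, 236 and 216 (log2 change 0.89 ± 0.16 SE, adjusted p = 4.14e-05). Pou2f3, the factor that specifies tuft cells, was at 60.4, 58.9, 50.6 and 52 and 54.5, 75.4, 51.8 and 57, with overlapping groups (adjusted p = 0.733), with a log2 change of 0.09 that turned to -0.36 with the same total. Avil, an actin-binding protein, rose (log2 change 3.21 ± 0.24 SE, adjusted p = 4.66e-10).

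Enteroendocrine cells, the hormone cells of the gut, split by product. Pyy, peptide YY, was at 3 reads or fewer in each untreated sample and at 12100, 14000, 7540 and 11600 with BMP2 (adjusted p = 6.73e-12). Sct, secretin, went from 25.8, 29, 35.5 and 28.1 to 1030, 737, 576 and 486 (log2 change 4.48 ± 0.29 SE, adjusted p = 1.01e-10), and Nts, neurotensin, from 4.44, 8.3, 4.44 and 7.43 to 108, 70.3, 71.8 and 60.7 (log2 change 3.47 ± 0.28 SE, adjusted p = 1.87e-09). Tph1, which makes serotonin, rose from 361, 305, 302 and 235 to 3060, 2380, 2160 and 1240 (log2 change 2.82 ± 0.26 SE, adjusted p = 1.39e-08), whereas the serotonin transporter Slc6a4 fell (log2 change -4.30 ± 0.29 SE, adjusted p = 1.69e-10). Gcg, the glucagon precursor, fell from 678, 598, 389 and 554 to 205, 125, 50.6 and 97.5 (log2 change -2.35 ± 0.37 SE, adjusted p = 1.47e-05). Neurog3, which starts the endocrine programme, went from 123, 110, 193 and 123 to 1 read in each treated sample (adjusted p = 4.39e-12). Chga, a granin of mature endocrine cells, rose (log2 change 1.31 ± 0.28 SE, adjusted p = 0.000402). Over the 18 tested hormones and serotonin genes, 6 rose and 4 fell, 33.3% and 22.2%. Over 38 endocrine factors and granins 9 rose and 10 fell, 23.7% and 26.3% and so near the shares of all genes. The median of these factors and granins changed sign with the same total (0.12 and -0.33). Without BMP2 replicate VI, 12 of these endocrine factors and granins rose.

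Genes of M cells and of the stomach were followed as markers of other epithelial fates. M cell genes rose in 5 and fell in 5 of 13 cases, with the decoy receptor Tnfrsf11b at 183, 119, 79.8 and 101 and 13600, 13400, 10800 and 10900 (log2 change 6.70 ± 0.24 SE, adjusted p = 2.09e-13). Ctse, an aspartic protease of gastric surface cells and antigen-presenting cells, rose from 71, 52.3, 235 and 116 to 21700, 28000, 29300 and 29900 (log2 change 8.06 ± 0.54 SE, adjusted p = 1.2e-10). Pgc, pepsinogen, fell (log2 change -2.63 ± 0.25 SE, adjusted p = 1.44e-08). Gastric transcripts as a list showed 5 rises and 4 falls among 17, 29.4% and 23.5% against 20.8% and 23.1% of all genes.

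Markers of the villus tip rose, while digestive enzymes and many nutrient transporters of enterocytes fell. Villus tip markers rose in 23 of 29 cases and fell in 1. Krt20, a keratin of differentiated villus cells, stood at 1510, 1620, 2400 and 2820 and 54200, 57300, 57200 and 85400, highest in BMP2 replicate VI (log2 change 4.95 ± 0.34 SE, adjusted p = 1.89e-10). Nt5e, the ectonucleotidase CD73, stood at 23.1, 9.13, 27.5 and 14.9 and 2050, 2480, 8100 and 4840 (log2 change 7.69 ± 0.47 SE, adjusted p = 3.86e-11), and Ada, adenosine deaminase, at 396, 437, 536 and 569 and 4690, 7540, 25000 and 19500, with replicates IV and VI highest (log2 change 4.58 ± 0.54 SE, adjusted p = 3.52e-07). The single member that fell was Slc15a1, the peptide transporter, described with the transporters. Several villus tip markers are also members of the AP-1, EGF or keratin lists, so these lists are not independent.

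Of 42 transcription factors of enterocyte maturation, 13 rose and 13 fell on the authors' scale. With the same total 7 rose and 14 fell. Klf4 and Klf6, zinc finger factors of differentiated epithelium, rose (log2 changes 2.74 and 3.77), and Prdm1, Blimp1, went from 58.6, 46.5, 24 and 53.7 to 670, 843, 712 and 645 (log2 change 4.01 ± 0.28 SE, adjusted p = 2.38e-10). Hnf4g, a nuclear receptor of enterocyte identity, fell from 1880, 1810, 2890 and 2880 to 597, 687, 574 and 915 (log2 change -1.76 ± 0.21 SE, adjusted p = 3.01e-07). Its paralogue Hnf4a stood at 16700, 17400, 16700 and 18900 and 15300, 20200, 18700 and 25500, with overlapping groups (adjusted p = 0.217), with a log2 change of 0.17 on the authors' scale and -0.29 with the same total, and was called higher without BMP2 replicate II (log2 change 0.29, adjusted p = 0.0283). Among the other members of this list that fell were the carbohydrate sensor Mlxipl (log2 change -3.77 ± 0.15 SE, adjusted p = 4.35e-13), the fatty acid receptor Ppara (log2 change -2.84 ± 0.24 SE, adjusted p = 2.52e-09) and Nr5a2 (log2 change -4.40 ± 0.26 SE, adjusted p = 2.09e-11).

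Brush border disaccharidases and peptidases, the digestive enzymes of the apical membrane, fell in 17 of 21 cases and rose in 1. Sis, sucrase-isomaltase, stood at 16700, 16200, 37500 and 27900 without and 1330, 1470, 1280 and 2320 with BMP2 (log2 change -3.89 ± 0.31 SE, adjusted p = 1.61e-09). Anpep, aminopeptidase N, stood at 4650, 5100, 6440 and 6930 and 257, 354, 178 and 371 (log2 change -4.35 ± 0.28 SE, adjusted p = 7.41e-11). Replicates IV and VI were higher than II and III in the untreated group for both, and the median over the list lay 0.42 and 0.42 above the untreated mean in the former and -0.47 and -0.36 from it in the latter, in log2 units. Lct, lactase, stood at 104, 176, 392 and 292 and 22.7, 37.1, 24.7 and 151. For Lct, BMP2 replicate VI lay above the lowest untreated sample, so the groups overlapped (log2 change -2.31 ± 0.54 SE, adjusted p = 0.000793), and without that replicate the log2 change was -2.91. Alpi, intestinal alkaline phosphatase, overlapped, at 8910, 9480, 11600 and 13400 and 14900, 11100, 13800 and 20200. Its log2 change was 0.45 (adjusted p = 0.0394), -0.01 with the same total, and not called without BMP2 replicates II or VI or untreated replicates II or III (adjusted p from 0.0678 to 0.16). The member that rose was Pepd, a cytosolic prolidase (log2 change 1.42 ± 0.13 SE, adjusted p = 1.41e-08).

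Microvillus structure genes went mainly up, 18 of 33 rising and 5 falling, and 11 and 7 with the same total. Vil1, villin, stood at 8880, 9080, 10700 and 11300 and 21900, 25300, 29900 and 38900 (log2 change 1.51 ± 0.18 SE, adjusted p = 3.45e-07), and the protocadherin Cdhr5 at 3120, 3170, 4470 and 4850 and 9200, 10600, 12900 and 15600 (log2 change 1.63 ± 0.24 SE, adjusted p = 4.46e-06). Cobl and Pdzd3, an actin nucleator and an apical scaffold, fell (log2 changes -1.38 and -1.82).

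**Figure D3:**
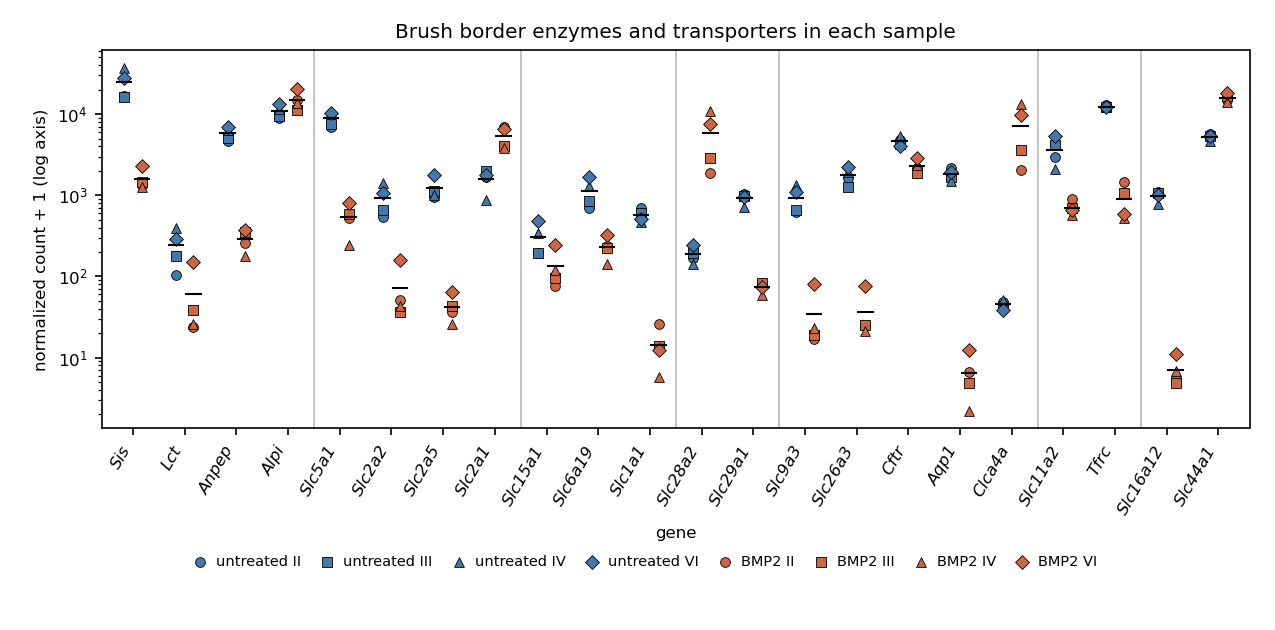
Normalized count plus 1 on a log axis for brush border enzymes, then sugar, peptide and amino acid, nucleoside, ion and water, iron, and other transporters in each of the 4 untreated (blue) and 4 BMP2 (orange) samples, with the mean as a line and the replicate as marker shape. Sis, Slc5a1, Slc2a5, Aqp1 and Slc16a12 lie far below the untreated samples, Slc28a2 and Clca4a far above, and BMP2 replicate VI is the highest treated sample for Lct, Slc2a2, Slc9a3 and Slc26a3.

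Solute carriers, the SLC genes, fell more often than they rose. Of 333 solute carriers in the table, 257 were tested, and 20.6% rose and 33.5% fell, against 20.8% and 23.1% of all genes. By family, 5 of 7 sodium-coupled SLC5 carriers, 7 of 11 monocarboxylate carriers of the SLC16 family and 15 of 40 mitochondrial SLC25 carriers fell, while 0, 1 and 3 rose. Other families had more rises than falls: 3 of 4 nucleoside carriers of the SLC28 family rose and 1 fell, 3 of 4 choline carriers of the SLC44 family rose and 0 fell, and 3 of 6 bicarbonate carriers of the SLC4 family rose and 1 fell. Among sodium-calcium exchangers of the SLC8 family 2 of 3 rose and 0 fell, and among sodium-proton exchangers of the SLC9 family 3 of 8 rose and 1 fell. The SLC9 median changed sign with the same total (0.39 and -0.07). Sugar transporters fell in 12 of 16 cases and rose in 2. Slc5a1, the sodium-glucose cotransporter SGLT1, stood at 7040, 7560, 10700 and 10300 without and 530, 586, 245 and 809 with BMP2 (log2 change -4.13 ± 0.27 SE, adjusted p = 1.01e-10). Slc2a5, the fructose transporter GLUT5, stood at 964, 1130, 1020 and 1790 and 35.2, 42.2, 24.7 and 63.3 (log2 change -4.89 ± 0.30 SE, adjusted p = 4.99e-11), and Slc2a2, the basolateral GLUT2, at 544, 655, 1400 and 1070 and 50, 35.8, 42.3 and 159 (log2 change -3.83 ± 0.44 SE, adjusted p = 2.14e-07). The treated samples lay below the untreated ones in all 3 cases. The 2 sugar transporters that rose were Slc2a1, the ubiquitous GLUT1, from 1680, 1990, 885 and 1780 to 6930, 4040, 3830 and 6520 (log2 change 1.76 ± 0.25 SE, adjusted p = 4.44e-06), and Slc2a4, the insulin-responsive GLUT4, from 2.66, 7.47, 7.1 and 4.13 to 29.5, 63.9, 80 and 45.6 (log2 change 3.13 ± 0.42 SE, adjusted p = 1.83e-06).

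Peptide and amino acid transporters fell in 13 and rose in 4 of 35 cases. Slc1a1, the glutamate transporter EAAT3, stood at 706, 611, 464 and 504 and 25, 12.8, 4.71 and 11.4 (log2 change -5.48 ± 0.36 SE, adjusted p = 1.07e-10), and Slc6a19, the apical neutral amino acid transporter, at 706, 839, 1290 and 1660 and 233, 226, 141 and 327 (log2 change -2.25 ± 0.31 SE, adjusted p = 2.06e-06). Slc15a1, the proton-coupled peptide transporter PEPT1, overlapped between groups, at 191, 193, 346 and 482 and 74.9, 93.3, 120 and 246. Its log2 change was -1.22 ± 0.40 SE, adjusted p = 0.00994, and it was not called after quantile normalization (adjusted p = 0.0771). Slc6a9, the glycine transporter, and Slc38a2, a stress-inducible glutamine transporter, rose (log2 changes 2.06 and 1.07).

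Nucleoside transport and purine genes rose in 8 and fell in 7 of 26 cases (30.8% and 26.9%), with a median that changed sign with the same total (0.16 and -0.30). The concentrative transporter Slc28a2 went from 170, 192, 143 and 246 to 1870, 2840, 11000 and 7650, with replicates IV and VI highest among the treated samples (log2 change 4.63 ± 0.59 SE, adjusted p = 8.8e-07). The equilibrative transporter Slc29a1 fell from 1040, 982, 718 and 958 to 81.7, 83.1, 57.6 and 73.4 (log2 change -3.63 ± 0.18 SE, adjusted p = 2.72e-12), and the adenosine receptor Adora1 from 343, 338, 181 and 285 to 10.2, 10.2, 7.06 and 10.1 (log2 change -4.76 ± 0.27 SE, adjusted p = 1.65e-11).

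Ion, water and bicarbonate transport genes rose in 17 and fell in 18 of 54 cases. The sodium-proton exchanger Slc9a3 stood at 621, 657, 1320 and 1100 and 15.9, 17.9, 22.4 and 78.5 (log2 change -4.98 ± 0.43 SE, adjusted p = 3.88e-09). The chloride-bicarbonate exchanger Slc26a3 stood at 1610, 1260, 1930 and 2210 and 23.8, 24.3, 20 and 74.7 (log2 change -5.76 ± 0.34 SE, adjusted p = 2.11e-11). Both are the apical partners of neutral salt absorption, and both were higher in BMP2 replicate VI than in the other treated samples. The water channel Aqp1 went from 2150, 1700, 1500 and 1960 to 5.68, 3.84, 1.18 and 11.4 (log2 change -8.38 ± 0.38 SE, adjusted p = 1.17e-12), and Aqp4, a basolateral water channel of crypt cells, from 2980, 3350, 2520 and 2920 to 7.95, 6.39, 5.88 and 15.2 (log2 change -8.30 ± 0.27 SE, adjusted p = 1.05e-13). Cftr, the secretory chloride channel, was lower by close to 2-fold, from 4810, 4260, 5310 and 4030 to 2160, 1880, 2360 and 2860 (adjusted p = 8.41e-08). Clca4a and Clca4b, secreted regulators of chloride conductance with similar sequences, rose, Clca4a from 47.1, 42.3, 50.6 and 38 to 2030, 3600, 13500 and 9680 (log2 change 6.94 ± 0.57 SE, adjusted p = 2.33e-09). Trpm6, an apical magnesium channel, rose as well (log2 change 3.57 ± 0.22 SE, adjusted p = 4.15e-11).

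Iron, zinc and copper genes fell in 16 and rose in 8 of 40 cases. Slc11a2, the apical iron importer DMT1, stood at 2960, 4170, 2080 and 5360 and 904, 691, 573 and 652 (log2 change -2.30 ± 0.33 SE, adjusted p = 3.9e-06), and Tfrc, the transferrin receptor, at 12900, 12300, 12100 and 12100 and 1450, 1060, 527 and 582 (log2 change -3.90 ± 0.30 SE, adjusted p = 8.37e-10). Hmox1, which frees iron from heme, rose from 466, 181, 81.6 and 151 to 4180, 2280, 905 and 716 (log2 change 3.13 ± 0.56 SE, adjusted p = 6.04e-05), as did Ncoa4, the ferritin receptor of autophagy (log2 change 2.38 ± 0.19 SE, adjusted p = 1.11e-09). Slc30a2, a zinc exporter of granules, fell (log2 change -5.99 ± 0.32 SE, adjusted p = 6.36e-12). Of the 32 vitamin, organic ion and monocarboxylate carriers, 13 fell and 8 rose, with Slc16a12, a creatine transporter, at 1100, 1060, 775 and 1020 and 4.54, 3.84, 5.88 and 10.1 (log2 change -7.19 ± 0.22 SE, adjusted p = 8.11e-14) and the choline transporter Slc44a1 at 5700, 5310, 4630 and 5330 and 14800, 16600, 14100 and 18000 (log2 change 1.60 ± 0.10 SE, adjusted p = 4.49e-11).

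Lipid handling genes moved in both directions. Fatty acid uptake genes fell in 9 and rose in 4 of 21 cases. Fabp1, the abundant fatty acid binding protein, stood at 10800, 11000, 13900 and 19600 and 2320, 1640, 912 and 2900 (log2 change -2.91 ± 0.30 SE, adjusted p = 5.79e-08), and Slc27a2, a fatty acid transport protein, at 1090, 1100, 1490 and 1120 and 54.5, 57.5, 38.8 and 50.6 (log2 change -4.55 ± 0.24 SE, adjusted p = 6.79e-12). Mttp, which loads lipid onto apolipoprotein B, fell (log2 change -1.85 ± 0.26 SE, adjusted p = 2.96e-06), while Apob itself went from 17000, 17000, 37700 and 18400 to 94000, 75900, 215000 and 62200 (log2 change 2.22 ± 0.34 SE, adjusted p = 8.51e-06). The lipid droplet coats Plin2 and Cidec rose (log2 changes 2.94 and 3.11), and Gpam, which starts glycerolipid synthesis, fell from 1520, 1960, 1370 and 1720 to 116, 139, 126 and 132 (log2 change -3.66 ± 0.16 SE, adjusted p = 8.25e-13). Triglyceride synthesis with droplet genes (13 rises and 11 falls of 34) and apolipoprotein genes (4 and 3 of 20) had medians that changed sign with the same total (0.18 to -0.28 and 0.11 to -0.35). The apolipoprotein shares of 20% and 15% compare with 20.8% and 23.1% of all genes. Fatty acid oxidation genes fell in 12 and rose in 3 of 37 cases, for example Hadh, a mitochondrial dehydrogenase of the pathway (log2 change -2.02 ± 0.14 SE, adjusted p = 2.09e-10). Of the sterol carriers, Abcg5 and Abcg8, which export plant sterols, fell (log2 changes -2.13 and -2.39), and Abca1 and Abcg1, which export cholesterol, rose (log2 changes 2.52 and 3.50). Cholesterol synthesis genes stayed mostly within 2-fold, with 1 rise and 4 falls of 30, and their median also changed sign (0.12 to -0.34).

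Of 22 vitamin A, folate and vitamin B12 genes tested, 8 rose and 9 fell, and genes of retinoid metabolism were in both sets. Aldh1a3, which makes retinoic acid, stood at 154, 92.9, 71 and 136 without and 42300, 63500, 32700 and 43800 with BMP2 (log2 change 8.66 ± 0.34 SE, adjusted p = 3.71e-13). Aldh1a1, which catalyses the same step, stood at 2340, 2400, 6190 and 6430 and 251, 243, 184 and 654 (log2 change -3.72 ± 0.50 SE, adjusted p = 1.62e-06). Lrat, which esterifies retinol for storage, fell from 129, 155, 176 and 143 to 6.81, 6.39, 2.35 and 3.8 (log2 change -4.77 ± 0.28 SE, adjusted p = 2.66e-11). Treated samples lay on 1 side of all untreated ones for each of these 3 genes.

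Drug and xenobiotic metabolism, a main function of enterocytes, fell in 38 of 58 cases and rose in 6, or in 41 and 4 without BMP2 replicate VI. Cyp3a11, a broad-range cytochrome P450, stood at 1050, 1150, 2700 and 2730 and 132, 144, 104 and 280 (log2 change -3.48 ± 0.43 SE, adjusted p = 6.01e-07), and Adh1, alcohol dehydrogenase, at 8110, 8070, 10500 and 12900 and 1250, 1200, 819 and 1970 (log2 change -2.96 ± 0.24 SE, adjusted p = 2.22e-09). Glutathione S-transferases fell in 15 of 20 cases and UDP-glucuronosyltransferases in 12 of 12. Both families have near-identical members that the counting could have split, so these counts are of genes that are not fully separable. Gluconeogenesis and fructose genes fell in 13 of 15 cases and rose in 0. Fbp1, fructose bisphosphatase, went from 337, 380, 512 and 544 to 5.68, 15.3, 5.88 and 29.1 (log2 change -5.15 ± 0.39 SE, adjusted p = 6.15e-10), and Khk, which phosphorylates fructose, from 888, 983, 1540 and 1690 to 59, 57.5, 50.6 and 132 (log2 change -4.13 ± 0.28 SE, adjusted p = 1.41e-10). Glycolysis enzymes rose in 7 and fell in 5 of 27 cases, 25.9% and 18.5% and so near the shares of all genes. Their median log2 change was 0.45. With the same total the median was -0.01, and 3 rose and 7 fell. The hexokinases Hk1 and Hk2 rose (log2 changes 2.44 and 1.08) and Pdk1, which diverts pyruvate from mitochondria, fell (log2 change -2.19 ± 0.43 SE, adjusted p = 0.00014).

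Junctions, cytoskeleton and keratins rose together. Adhesion genes rose in 26 of 30 cases and fell in 1, the gap junction gene Gjb2, and actin and contractile genes rose in 28 of 32 and fell in 1, the myosin light chain Myl9. At the same total, 21 adhesion and 24 actin and contractile genes rose. Cdh1, E-cadherin, stood at 24300, 22800, 22500 and 21900 and 103000, 101000, 103000 and 110000 (log2 change 2.19 ± 0.10 SE, adjusted p = 1.41e-12). Cldn4, a claudin of tight barriers, stood at 2770, 2240, 1090 and 1490 and 102000, 90700, 72200 and 83400 (log2 change 5.60 ± 0.27 SE, adjusted p = 2.45e-12), whereas the pore-forming Cldn2 and Cldn15 fell (log2 changes -2.07 and -3.65). Lama3, a chain of laminin-332, rose from 217, 139, 200 and 230 to 28900, 23300, 30900 and 29100 (log2 change 7.17 ± 0.27 SE, adjusted p = 2.19e-13). Keratins rose in 14 of 17 tested cases, out of 35 in the list. Krt14, a basal keratin of stratified epithelia, was at 4 normalized counts or fewer without and at 1300, 1640, 2160 and 3680 with BMP2 (adjusted p = 1.29e-10). Keratinocyte and squamous genes rose in 16 of 20 tested cases (31 in the table) and S100 genes in 11 of 12 (16 in the table). Serpins rose in 14 of 16 (36 in the table) and annexins in 8 of 12 (12 in the table). Genes silent without ligand pass the filter on low values only if they are high in a treated group. Shares of tested members in such lists can therefore favour rises. The same holds for the superfamily ligand, antagonist, YAP target, chemokine, protease and integrin lists. Genes linked to the epithelial-mesenchymal transition rose in 5 of 10 tested cases and fell in 1, or in 3 and 1 with the same total. These counts do not separate members that promote the transition from members that mark or oppose it. Vim, the mesenchymal intermediate filament, fell (log2 change -2.07 ± 0.20 SE, adjusted p = 3.08e-08).

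Interferon response genes rose in 38 of 43 tested cases, of 48 in the list, and fell in 1, with a median log2 change of 2.96. With the same total, 34 rose. Ifit3, which binds viral RNA complexes and whose promoter with 2 matches is printed above, stood at 19.5, 9.13, 11.5 and 21.5 without and 646, 721, 528 and 724 with BMP2 (log2 change 5.39 ± 0.36 SE, adjusted p = 1.08e-10). Usp18, which limits interferon receptor signalling, stood at 33.7, 12.4, 18.6 and 18.2 and 941, 757, 768 and 930 (log2 change 5.37 ± 0.35 SE, adjusted p = 8.85e-11). The groups were far apart for both, and the treated samples lay close together, at list medians between 2.84 and 3.02 log2 units above the untreated mean. The member that fell was Samhd1, a nucleotide hydrolase (log2 change -1.25 ± 0.13 SE, adjusted p = 9.15e-08). Antigen presentation genes rose in 5 and fell in 5 of 22 cases (3 and 10 with the same total). On the authors' scale these shares, 22.7% each, lie near those of all genes. The class I gene H2-D1 rose (log2 change 1.81 ± 0.11 SE, adjusted p = 2.16e-11) and the nonclassical H2-T3 fell (log2 change -4.34 ± 0.30 SE, adjusted p = 2.31e-10).

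**Figure D4:**
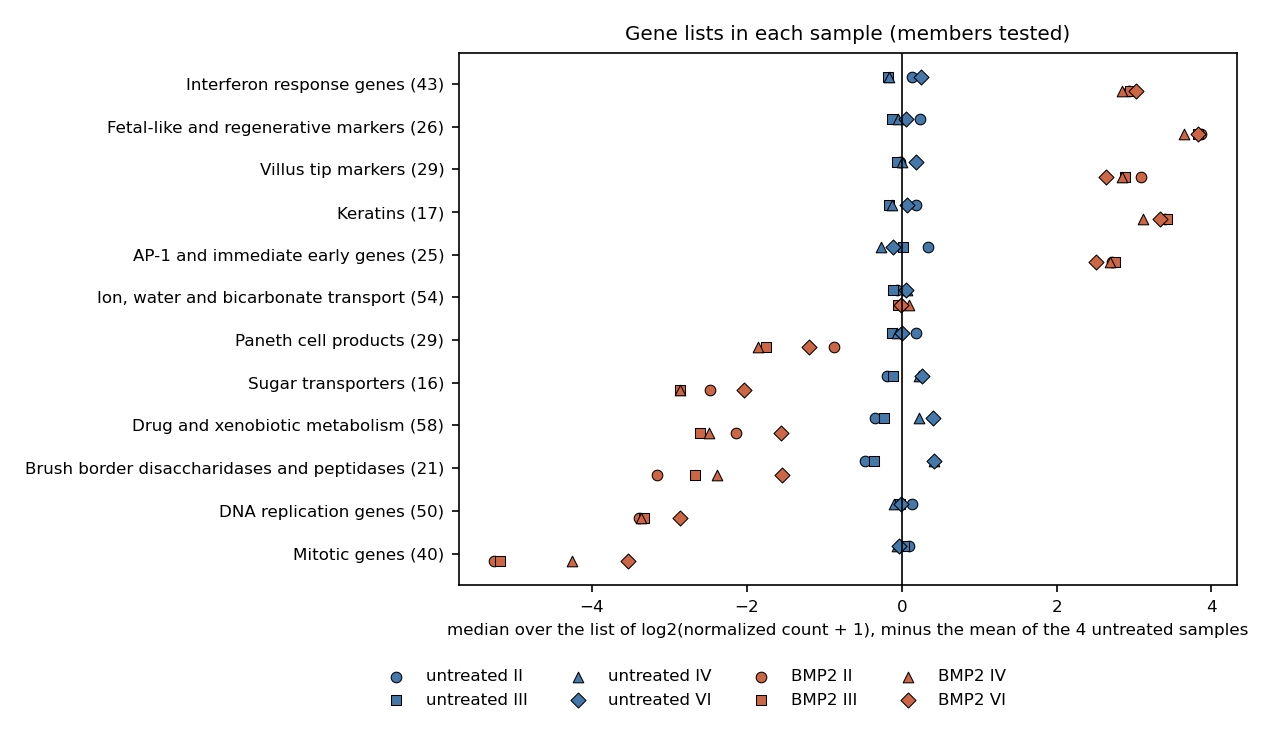
Median over the tested members of 12 gene lists of log2(normalized count + 1) in each sample, as the difference from the mean of the 4 untreated samples. The interferon list is tight in the treated samples (2.84 to 3.02), and BMP2 replicate VI (diamond) is the treated sample nearest to the untreated ones for the mitotic, brush border, drug metabolism and sugar transporter lists.

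Of 41 chemokines and immune modulators in the table, 33 were tested, 21 rose and 8 fell. The falls included products with which the epithelium recruits or serves lymphocytes. Pigr, which carries immunoglobulin A across the epithelium, stood at 41300, 42200, 46400 and 42500 and 1130, 1250, 775 and 929 (log2 change -5.42 ± 0.20 SE, adjusted p = 1.93e-13). Ccl25, which draws T cells to the small intestine, stood at 2990, 2600, 3150 and 3570 and 134, 110, 141 and 128 (log2 change -4.57 ± 0.18 SE, adjusted p = 3.71e-13), and Ccl28 at 1100, 1120, 1520 and 1120 and 7.95, 12.8, 21.2 and 41.8 (log2 change -6.02 ± 0.33 SE, adjusted p = 9.8e-12). The rises included neutrophil chemokines such as Cxcl5, from 4 reads or fewer to 56.8, 69.1, 41.2 and 62 (adjusted p = 3.26e-08), and the interleukin 1 antagonist Il1rn (log2 change 4.36 ± 0.19 SE, adjusted p = 9.37e-13). AP-1 and immediate early genes rose in 22 of 25 cases and fell in 0. Fosl1, an AP-1 subunit, stood at 36.4, 46.5, 32.8 and 33 and 510, 515, 438 and 523 (log2 change 3.71 ± 0.28 SE, adjusted p = 7.45e-10). Dusp1, a phosphatase of stress kinases, stood at 276, 131, 43.5 and 82.6 and 4970, 3530, 2600 and 2770, with replicate II highest in both groups (log2 change 4.96 ± 0.46 SE, adjusted p = 1.11e-08). Ptgs2, the inducible prostaglandin synthase, rose from 51.5, 24.1, 56.8 and 19 to 3300, 3750, 2710 and 1270 (log2 change 6.18 ± 0.43 SE, adjusted p = 2.42e-10), and Nox1, a superoxide-producing oxidase, fell from 340, 290, 1130 and 624 to 2.27, 2.56, 7.06 and 26.6 (log2 change -6.17 ± 0.61 SE, adjusted p = 3.1e-08).

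Housekeeping machineries shifted by amounts that depended on the scaling. Of 79 cytosolic ribosomal proteins, 72 were lower and 0 higher at an adjusted p under 0.05, but only 8 fell at least 2-fold, with a median log2 change of -0.69. Without BMP2 replicate VI, 11 fell. With the same total the median was -1.15 and 56 fell. Mitochondrial ribosomal proteins and nuclear respiratory chain genes moved the same way, with medians of -0.75 and -0.59 and with 25 of 78 and 13 of 79 falling (19 of the latter without BMP2 replicate VI). Rescaled to the same total, these 2 lists had medians of -1.21 and -1.04, and 50 and 44 members fell. Of 13 respiratory genes of the mitochondrial genome, 3 were lower at an adjusted p under 0.05, 0 higher and 10 not called, and none fell at least 2-fold, with a median of -0.45. Their median in log2 units from the untreated mean was, in BMP2 replicate VI, 0.05 against -0.71 to -0.49 in the other treated samples. With the same total, 3 fell, and without BMP2 replicate VI 1 fell. Subunits of the V-type proton pump, which acidifies lysosomes, went the other way, with 9 of 19 rising and 1 falling. Atp6v1g1, a subunit of its stalk, stood at 1790, 1660, 1460 and 1670 and 6850, 7020, 6200 and 6990 (log2 change 2.04 ± 0.08 SE, adjusted p = 2.81e-13).

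Markers of other cell types were checked over the same samples. Epithelial identity genes summed to between 149750 and 170200 normalized counts without and between 804920 and 1034440 with BMP2. Of the 11, 10 rose, or 7 with the same total. The member that did not rise on the authors' scale was Cdx2 (log2 change -0.43 ± 0.17 SE, adjusted p = 0.0309, and not called by edgeR, adjusted p = 0.0906, by DESeq2, adjusted p = 0.11, in these 8 samples alone, adjusted p = 0.0946, or without BMP2 replicates II or IV or untreated replicates III or VI, adjusted p from 0.0684 to 0.153). Mesenchymal markers summed to between 13.2 and 50.5 without and 44.8 and 90.8 with BMP2. Of the 18, 15 were in the table and Des and Gli1 had no read in any of the 8 samples. The fibroblast receptor Pdgfra averaged 0.667 and 22.9. Immune cell markers summed to 618 to 799 and 246 to 444, mostly from the receptor Kit, which fell (log2 change -1.66 ± 0.26 SE, adjusted p = 1.37e-05), while Ptprc, found on all leukocytes, averaged 6.71 and 14. Markers of endothelial, neural and muscle cells summed to 608 to 826 and 904 to 1094. The part of such cells in the results was not tested.

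Ranks 4 to 13 of the largest changes included genes with other roles. Trim29, a ubiquitin ligase of squamous epithelia, stood at 17.8, 6.64, 14.2 and 24.8 without and 3610, 3830, 4070 and 5680 with BMP2 (log2 change 8.10 ± 0.53 SE, adjusted p = 1.08e-10). Ephb6, a kinase-dead Eph receptor, and Plxna4, a semaphorin receptor, were at 6 reads or fewer in each untreated sample and at 577 to 828 and 813 to 1470 with BMP2. Pmp22, a tetraspan membrane protein, went from 10.7, 5.81, 5.32 and 9.91 to 4490, 2610, 1760 and 3700 (log2 change 8.42 ± 0.43 SE, adjusted p = 4.19e-12). Among the falls, Aqp4, Aqp1, Lgr5, Smoc2 and Slc16a12 appear above.

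Direct tests against 2 other ligands, given at the same dose and time, show where BMP2 differed from them. The ligands were added as protein, so these RNA values do not check which ligand a sample received, and the BMP2 and BMP4 groups are taken as labelled. BMP4 is the closest relative of BMP2, and BMP7 belongs to another subgroup of the family. The BMP4 and BMP7 groups have 3 samples each, and genes are given as means ± SD. At an adjusted p under 0.05, 33.4% of genes were higher with BMP2 than with BMP4 and 33.4% lower, and 31.4% were higher than with BMP7 and 31.4% lower. At least 2-fold differences were called for 16.5% (higher with BMP2) and 18.8% (lower) of genes against BMP4, and 11.8% and 17% against BMP7. Normalized counts summed to less in BMP7 samples, and with the same total the shares against BMP7 were 5.79% higher and 25.1% lower. These p-values are adjusted over all genes within each of the 2 comparisons.

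Brush border enzymes were lower with BMP2 than with BMP4 in 20 of 21 cases and higher in 0, and drug metabolism genes lower in 52 of 58 and higher in 1. Sis averaged 1600 ± 487 with BMP2, 82400 ± 22131 with BMP4 and 6993 ± 2154 with BMP7. The log2 difference of BMP2 was -5.69, adjusted p = 5.31e-11 from BMP4 and -2.12, adjusted p = 2.58e-05 from BMP7. Slc5a1 averaged 542 ± 232 with BMP2 and 37933 ± 8779 with BMP4 (log2 difference -6.22, adjusted p = 3.63e-12). Against BMP7 the brush border and drug metabolism lists were lower in 11 and 33 members.

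Fetal-like genes were higher with BMP2 than with BMP4 in 23 of 26 cases and higher than with BMP7 in 19, or 14 with the same total. Clu averaged 126000 ± 10100 with BMP2, 5087 ± 1727 with BMP4 and 50167 ± 6730 with BMP7, and the difference from BMP4 was 4.68, adjusted p = 2.35e-10. Fn1 averaged 3142 ± 1855, 21.5 ± 2.45 and 362 ± 149 in the same order, with differences of 6.94, adjusted p = 1.08e-10 from BMP4 and 3.00, adjusted p = 8.83e-06 from BMP7. Interferon genes were higher than with BMP4 in 18 of 43 cases and than with BMP7 in 33.

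Mitotic genes were lower with BMP2 than with BMP4 in 33 of 40 cases and than with BMP7 in 38. Crypt stem cell markers were lower than with BMP4 in 9 cases and higher in 9, and lower than with BMP7 in 15 of 25. Lgr5 averaged 9.5 ± 5.96 with BMP2, 26.9 ± 11.9 with BMP4 and 1493 ± 503 with BMP7, and its differences were -1.47, adjusted p = 0.00358 and -7.28, adjusted p = 1.51e-10. Pyy averaged 11310 ± 2718 with BMP2, 15.3 ± 11.4 with BMP4 and 465 ± 145 with BMP7, a log2 difference from BMP4 of 9.61, adjusted p = 6.92e-10 and from BMP7 of 4.62, adjusted p = 1.31e-05.

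Id genes and Smad6, the first targets of the pathway, are given with their intervals. The log2 difference of Id1 from BMP4 was 0.11, adjusted p = 0.637, with a 95% interval from -0.30 to 0.52, and that of Id3 was -0.41, adjusted p = 0.408, with an interval from -1.29 to 0.47. Smad6 was lower with BMP2 than with BMP4 (log2 difference -1.71, adjusted p = 0.0017). From BMP7, Id1 differed by 0.61, adjusted p = 0.0105, and by 0.22, adjusted p = 0.301, with the same total. Sct averaged 707 ± 239 with BMP2 and 672 ± 109 with BMP4 (log2 difference 0.03, adjusted p = 0.946, 95% interval from -0.64 to 0.69), and 216 ± 7.77 with BMP7 (log2 difference 1.65, adjusted p = 0.000187).

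**Figure D5:**
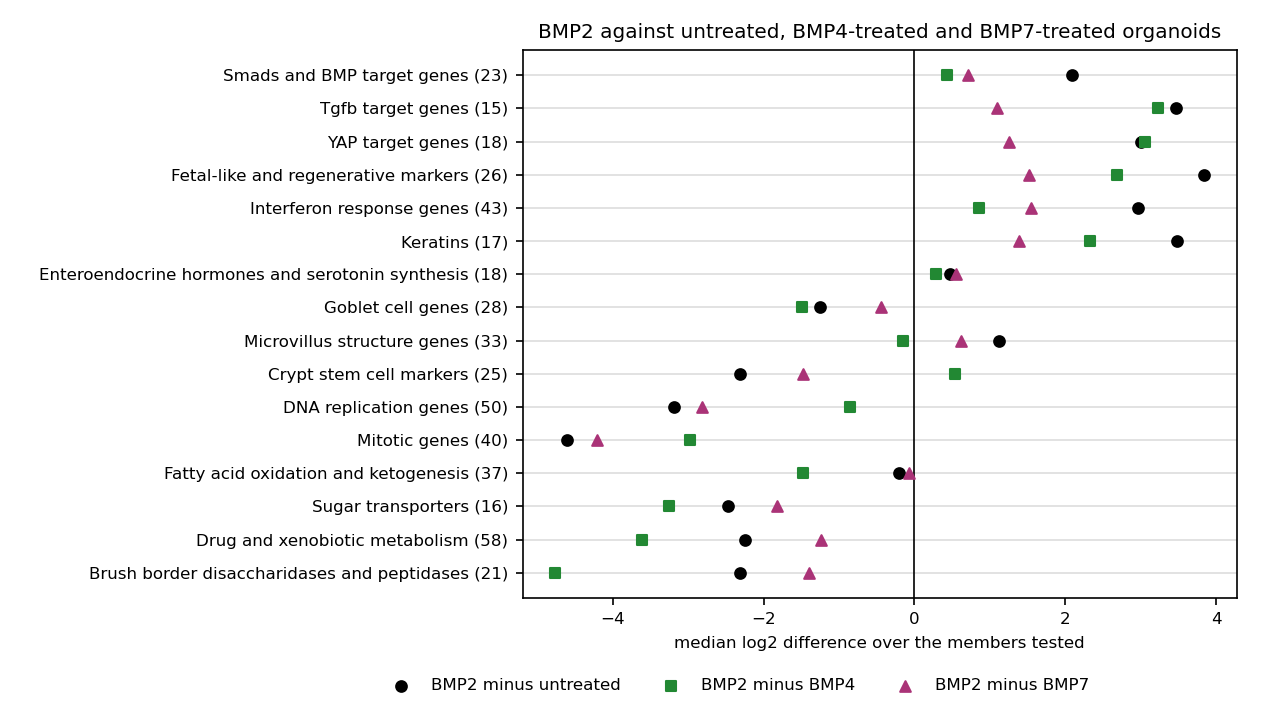
Median log2 difference over the tested members of 16 gene lists for BMP2 against untreated (circle), BMP4-treated (square) and BMP7-treated (triangle) organoids. The brush border list lies at -2.31 against untreated and -4.76 against BMP4, and the interferon list at 2.96, 0.86 and 1.55 against untreated, BMP4 and BMP7.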

How the data were processed

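RNA-seq of mouse small-intestinal organoids was analysed from the table that holds all 20 BMP and untreated samples. Per the submitters' processing notes, reads were handled with Trim Galore, Salmon and DESeq2 on the genome build GRCm39, with no versions given. The deposited values are gene counts that the authors divided by 1 size factor per sample, a normalized signal rounded to 3 significant digits. All 180721 values at or below 20 reads were whole multiples of the value of 1 read within 0.1, which gave the recovered reads and depth. The labels mention more than 1 sequencing run without assigning samples to runs, so runs could not be compared. No 2 replicates agreed within sampling noise.

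The log2(value + 1) of each gene was modelled in limma 3.58.1 (R 4.3.3), allowing an intensity trend, over the 6 groups and the 14746 of 29413 genes with a mean of at least 10, two-sided, with Benjamini-Hochberg adjustment over all of them. Fold changes on this scale understate the change of low genes. Alternatives were other pseudocounts, filters and scalings, only these 8 samples, replicate blocks, each replicate left out, and edgeR 4.0.16 and DESeq2 1.42.0 on recovered reads. The limma step was checked on simulated data with few genes changed, as many up as down, and no shift of the totals. That check therefore does not bear on the scaling or on data where most genes change. The comparison and gene lists were chosen with earlier results of these data known. Genes were named if marked as key to a list, or if among the 3 members of a list that rose or fell most with a group mean of at least 50 and no overlap, or at ranks 4 to 13 of all changes. Gjb2, Myl9, Des, Gli1, Pdgfra and Ptprc were named after their values were seen. Genes of near-identical families (defensins, UDP-glucuronosyltransferases, glutathione S-transferases, Clca4 genes) may share reads. A few results are not reported here.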

Additional observations from a re-analysis of the deposited data

Results flagged for a closer look

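For the genes named above, 370 groups of 4 samples were checked for a sample far from the other 3 of its group (a gap to the nearest sample that, as a share of the whole range, passes Dixon's 95% limit), and 26 had such a sample, where chance alone gives about 1 in 20. BMP2 replicate VI was that sample for 11 genes. It was high for Acvr1c (12.7 against 7.06 to 7.95 normalized counts in the other treated samples), Aldh1a1 (654 against 184 to 251), Ccna2 (220 against 32.9 to 63.5), Hadh (1860 against 1080 to 1190), Khk (132 against 50.6 to 59) and Krt20 (85400 against 54200 to 57300). It was also high for Lct (151 against 22.7 to 37.1), Olfm4 (549 against 66.5 to 88.5), Slc26a3 (74.7 against 20 to 24.3), Slc2a2 (159 against 35.8 to 50) and Slc9a3 (78.5 against 15.9 to 22.4). Each of these genes but Krt20 was thus nearer to its untreated level in this sample, and the cause was not tested.

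Untreated replicate IV was the outlying sample for 6 genes. It was high for Apob (37700 against 17000 to 18400 in the other untreated samples), Ccl28 (1520 against 1100 to 1120), Fn1 (40.8 against 17.4 to 20.6), Neurog3 (193 against 110 to 123) and Slc27a2 (1490 against 1090 to 1120), and low for Pdk1 (1720 against 5220 to 5910). BMP2 replicate IV was low for Adora1 (7.06 against 10.1 to 10.2) and Fosl1 (438 against 510 to 523), and high for Avil (1840 against 1010 to 1090) and Thbs1 (17900 against 14000 to 14400). Single cases were Ascl2 in untreated replicate VI (363 against 290 to 298), Hes1 in BMP2 replicate III (1000 against 1250 to 1280), Samhd1 in untreated replicate II (1440 against 1640 to 1670) and Zg16 in BMP2 replicate II (2160 against 901 to 1020). For Bmp4 in untreated replicate III the value of 0.83 is a single read against 0 in the others. For none of these genes did leaving out any 1 of the 8 replicates change the call.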

How the results depend on the processing

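Over 20 alternatives, the number of genes changed by BMP2 stayed within 1.5 times of 11077, and that of genes changed at least 2-fold within 1.5 times of 6470. With every sample at the same total, 3601 genes in place of 5420 were higher, and 1967 in place of 3060 were higher at least 2-fold, because that scaling shifts all genes down. Leaving out 1 replicate gave 10701 to 10945 genes changed and 6423 to 6496 changed at least 2-fold. edgeR and DESeq2 on recovered reads called 10785 and 10792. With the replicate number as a block, 11858 genes were changed (11465 in these 8 samples alone), against 11077 without it. Same-numbered samples correlated at 0.195, 0.0182, 0.421 and 0.308 in their deviations from the group means. BMP2 replicates II, IV and VI each correlated best with the untreated sample of the same numeral, and replicate III with untreated replicate II (0.133). The numerals may thus pair part of the samples, but the labels do not say so, and the main fit has no block. The block in these 8 samples alone gave Hes1 a call (adjusted p = 0.012) and changed no other call among the 186 genes named. Of the 181 named genes that were called, 177 kept call and direction in every alternative that tested them, the others being Alpi, Cdx2, Muc2 and Slc15a1. Directions changed for Alpi (-0.18 with quantile normalization, -0.01 with the same total), Bmpr1a (-0.47 and -0.41), Hnf4a (-0.43 and -0.29) and Pou2f3 (-0.36 with the same total, and from -0.02 without BMP2 replicate III to 0.15 without IV). The median changed sign with the same total for 13 of 82 lists, and no mesenchymal or Hox gene remained under a minimum mean of 50. List medians with genes at 0 in a whole group set to their bound were the same to 2 decimals. Depth limits genes at a few reads, whose values move by whole reads.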

Other observations

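Matrix proteases and plasminogen genes rose in 15 of 21 tested cases (27 in the table) and fell in 3. Adam8, a membrane metalloprotease, stood at 154, 124, 91.4 and 105 without and 4460, 4930, 3510 and 3900 with BMP2 (log2 change 5.15 ± 0.23 SE, adjusted p = 8.72e-13). Tmprss4, a membrane serine protease, fell from 3250, 3090, 3080 and 3360 to 574, 613, 656 and 949 (log2 change -2.22 ± 0.12 SE, adjusted p = 5.78e-12). Integrins rose in 12 of 18 tested cases (26 in the table) and fell in 2. Itgav, the subunit of receptors that bind latent Tgfb and fibronectin, stood at 953, 938, 1010 and 863 and 13200, 13600, 15800 and 14200 (log2 change 3.91 ± 0.16 SE, adjusted p = 5e-13). Of 36 collagens in the table only 8 passed the filter on low values, among them Col7a1, the anchoring fibril collagen of stratified epithelia, at 14.2, 24.1, 25.7 and 6.61 and 366, 376, 625 and 494 (log2 change 4.77 ± 0.46 SE, adjusted p = 2.4e-08).

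Endoplasmic reticulum stress genes rose in 6 and fell in 5 of 29 cases (5 and 9 with the same total). On the authors' scale these shares, 20.7% and 17.2%, lie near those of all genes. The sensor kinase gene Eif2ak3 rose from 1150, 865, 775 and 827 to 5390, 6140, 6540 and 6620 (log2 change 2.78 ± 0.14 SE, adjusted p = 3.99e-12), and the folding enzyme gene Pdia6 fell from 6310, 6550, 6880 and 6380 to 2080, 1740, 1990 and 2130 (log2 change -1.72 ± 0.09 SE, adjusted p = 4.4e-12). Of the 19 eicosanoid genes tested, 3 rose and 6 fell, and their median of 0.45 was -0.01 with the same total. Alox12, a lipoxygenase, was at 3 reads or fewer in each untreated sample and at 705, 398, 259 and 743 with BMP2 (adjusted p = 2.94e-10), while the secreted phospholipase Pla2g5 fell from 754, 617, 630 and 510 to 69.2, 42.2, 30.6 and 40.5 (log2 change -3.80 ± 0.31 SE, adjusted p = 1.71e-09). Redox genes rose in 10 and fell in 7 of 34 cases, 29.4% and 20.6% against 20.8% and 23.1% of all genes. Their median of 0.40 was -0.06 with the same total, with 5 rising and 10 falling. The secreted peroxidase gene Gpx3 rose from 55.9, 41.5, 36.4 and 32.2 to 649, 650, 581 and 610 (log2 change 3.90 ± 0.23 SE, adjusted p = 2.4e-11), and Prdx4, a peroxidase of the secretory pathway, fell from 769, 637, 475 and 652 to 77.2, 40.9, 40 and 149 (log2 change -3.22 ± 0.31 SE, adjusted p = 2.35e-08).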
